A study of Mus musculus with 24 samples.

Results

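Cell-cycle and proliferation genes were followed in the transcriptome of dispersed mouse islet cells exposed to palmitate. The set held 40 genes, picked by symbol from a table of 41549 genes, and all 40 passed the filter on low counts that left 15916 genes for testing. None of the 40 was at a count of 0 in any library. Islet cells came from wild-type C57BL/6NRj mice of both sexes, 12 to 14 weeks old, and which library came from which sex was not given. After dispersion the cells were transfected with 50 pmol of an antisense oligonucleotide (ASO) made of locked nucleic acids, either a control (Ctr) or an inhibitor of the tRNA fragment 5'tRF Glu(CTC) (αGlu). The cultures were then kept with 0.5 mM palmitate (PA) bound to bovine serum albumin (BSA), or with 0.75% BSA alone, in medium with 1% serum. This gave 24 libraries in 4 groups of 6 (Ctr BSA, αGlu BSA, Ctr PA and αGlu PA), and every group had 3 libraries in batch 1 (S1 to S12) and 3 in batch 2 (S13 to S24). The sources do not say what a batch is. Each replicate of primary cells was a preparation from a different animal, per the study's methods, and no cell type was isolated, so that the libraries hold all cells of the islet preparation.

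Cells enter the cycle when D-type cyclins bind the kinases Cdk4 and Cdk6 and release E2F factors from the retinoblastoma protein, after which cyclin E with Cdk2, the Mcm helicase and the enzymes of nucleotide supply carry the cell through DNA replication. The cyclins A and B with Cdk1, the mitotic kinases and the spindle proteins follow in late S, G2 and M phase, and their transcripts are abundant only in dividing cells. Adult β-cells divide rarely, and in mouse islets their growth depends on cyclin D2 and Cdk4.

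The inhibitor and the start regions of 5 members are shown first, since the inhibitor defines the αGlu groups and the promoters show which letters the late genes share. The αGlu ASO, whose reverse complement matches bases 2 to 21 of the 21-base target sequence listed for it, was printed in the study's oligonucleotide list as follows.
αGlu ASO: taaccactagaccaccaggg
Promoter sequences were taken from RefSeq (GRCm38.p6) as the 150 bases before the annotated start site, read 5′ to 3′ on the strand of the gene. Top2a (chr11:99024190-99024339, minus strand), Mki67 (chr7:135716380-135716529, minus strand) and Cdk1 (chr10:69352913-69353062, minus strand) are 3 genes of late S, G2 and M phase that differed by more than 2-fold between the batches. Plk1 (chr7:122159285-122159434, plus strand) and Mcm6 (chr1:128359706-128359855, minus strand) are 2 genes that were lower with PA. Capitals mark, on either strand, CCAAT boxes, the CHR motif in its spelling TTTGAA and its other spelling TTCGAA, and E2F motifs, spelled TTCCCGC in one form, TTGGCGC in another form and TTCGCGC in the last form. In Mcm6 each run of 10 capitals is 2 overlapping E2F matches on opposite strands.
Top2a: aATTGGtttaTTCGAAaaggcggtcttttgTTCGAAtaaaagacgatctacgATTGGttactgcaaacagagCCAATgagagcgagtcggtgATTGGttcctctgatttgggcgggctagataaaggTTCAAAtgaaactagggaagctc
Mki67: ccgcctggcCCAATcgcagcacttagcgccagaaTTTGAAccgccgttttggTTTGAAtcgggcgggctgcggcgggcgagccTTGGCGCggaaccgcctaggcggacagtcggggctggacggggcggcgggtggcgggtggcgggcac
Cdk1: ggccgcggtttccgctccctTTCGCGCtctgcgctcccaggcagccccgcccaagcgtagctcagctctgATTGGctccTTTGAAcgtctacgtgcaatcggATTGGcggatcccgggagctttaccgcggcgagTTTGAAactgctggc
Plk1: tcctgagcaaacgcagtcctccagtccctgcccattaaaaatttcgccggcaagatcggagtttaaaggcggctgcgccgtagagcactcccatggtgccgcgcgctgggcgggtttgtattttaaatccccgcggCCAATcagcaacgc
Mcm6: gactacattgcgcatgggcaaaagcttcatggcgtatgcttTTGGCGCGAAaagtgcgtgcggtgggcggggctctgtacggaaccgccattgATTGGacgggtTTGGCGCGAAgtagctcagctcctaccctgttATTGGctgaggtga

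A RefSeq promoter was found for 31 of the 40 genes. The other 9 were Ccnd1, Ccnd2, Ccne2, Mcm4, Ccna2, Foxm1, Aurkb, Kif20a and Tpx2. Over the 250 bases before the start site, a CCAAT box was present in 23 of the 31 promoters (74.2%) and in 34.5% of all 27025 RefSeq promoters. The CHR motif was present in 32.3% of the members' promoters and 17.4% of all, and an E2F motif in 25.8% and 6.79%. Among the 16 promoters of late S, G2 and M genes, 14 (87.5%) held a CCAAT box and 8 (50%) held a CCAAT box together with the CHR motif, which 6.21% of all promoters did. These are matches of letters and do not show that a factor was bound.

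The libraries held 18214719 to 35001979 counts each (median 26701201.5), of which the 40 genes together received 15565 to 48958. The β-cell genes Ins1 and Ins2 were abundant in every library, with 41200 to 79400 CPM for Ins2, where CPM are counts scaled to the library size after adjustment by the trimmed mean of M-values (TMM). Library S1 stood apart in the deposited TPM, a level that takes transcript length into account, with a median of 0.481 TPM for each CPM over the 40 genes, against 0.583 to 0.713 in the other libraries. For this reason TPM served only to rank genes, and groups were compared on counts. The libraries S10 and S12 of batch 1 were the lowest in CPM for 11 and 8 of the 40 genes.

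The D cyclins and Cdk4 were the most abundant of the 40 genes per length. In Ctr BSA, cyclin D2 (Ccnd2) was at 199.6 ± 53.0 TPM (SD, n = 6), cyclin D1 (Ccnd1) at 120.5 ± 33.4 TPM and Cdk4 at 82.8 ± 5.45 TPM. Their ranges overlapped between Ccnd2 (107 to 248 TPM) and Ccnd1 (70.3 to 156 TPM) and between Ccnd1 and Cdk4 (73.95 to 90.3 TPM). Pcna, the sliding clamp of the replicative polymerases, followed at 44.9 ± 7.76 TPM and its highest library (50.04 TPM) was below the lowest library of Cdk4. The helicase subunits Mcm7 and Mcm6 were at 12.5 ± 3.22 and 11.1 ± 3.64 TPM, and Ccnd3, the third D cyclin, was at 10.5 ± 1.64 TPM, with overlapping ranges.

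The genes of late S, G2 and M phase were low. Mki67, which encodes the proliferation antigen Ki-67, was at 4.81 ± 2.94 TPM in Ctr BSA, and Top2a, the topoisomerase that untangles replicated DNA, was at 2.68 ± 1.83 TPM. Cdk1 was at 1.21 ± 0.675 TPM, the checkpoint kinase Bub1 at 0.707 ± 0.535 TPM and the kinetochore protein Cenpf at 0.485 ± 0.322 TPM, the lowest mean of the 40. The spread between libraries was large for these genes relative to their mean, whereas Cdk4 varied little. On the CPM scale, 14 of the 40 genes had a mean of at least 10 CPM over all libraries and 22 a mean below 5 CPM.

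**Figure D1:**
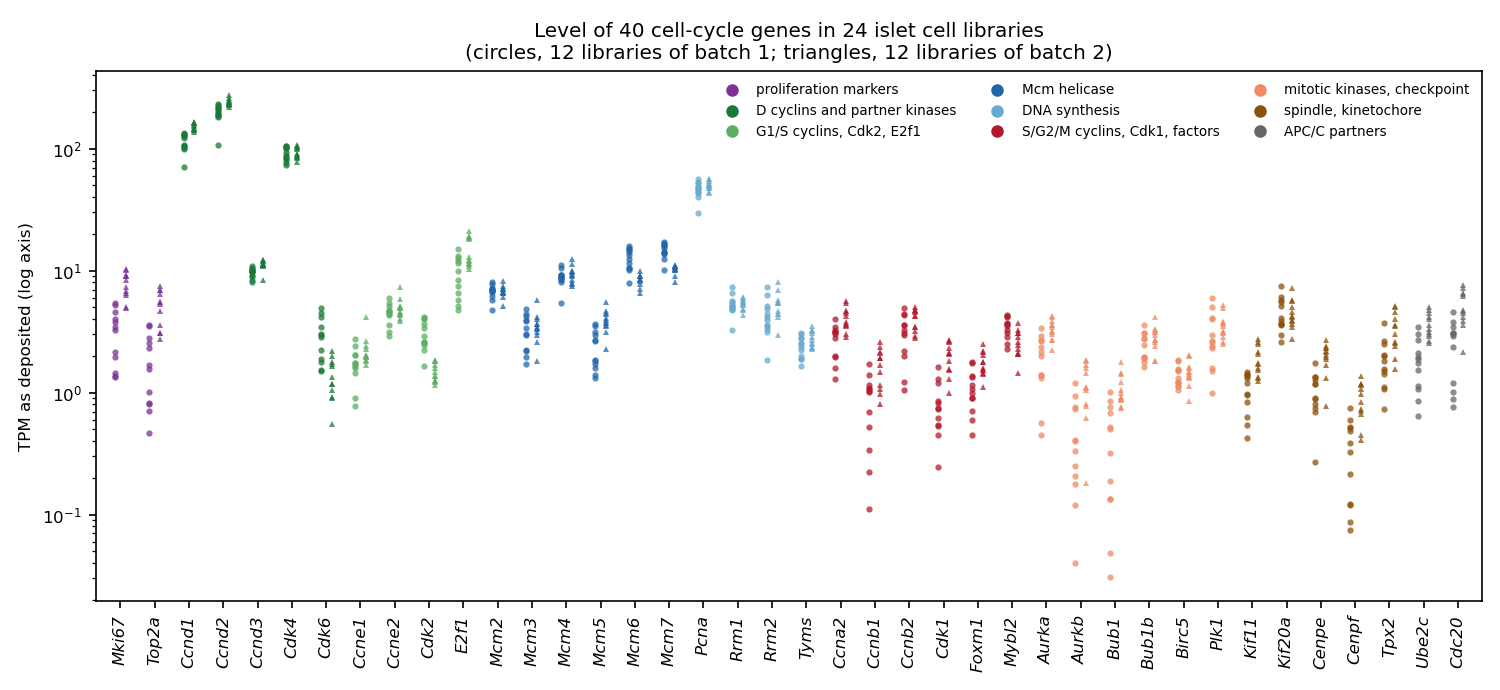
Level of the 40 cell-cycle genes in 24 libraries, in TPM on a log axis, ordered and coloured by role, with 12 libraries of batch 1 as circles and 12 of batch 2 as triangles. Ccnd2, Ccnd1, Cdk4 and Pcna lie above the rest. Of the late genes, Mki67 and Top2a are at the far left and the others on the right. Together the late genes reach from below 0.1 to about 10 TPM, for example 1.36 to 10.3 TPM for Mki67.

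Exposure to PA raised 4 and lowered 3 of the 40 genes in Ctr cells. These were 7 of 40 genes at an adjusted p below 0.05, where 30% of all genes tested passed (15.5% raised and 14.5% lowered). With the αGlu ASO, 4 were raised and 3 lowered, against 28.5% of all genes (14.4% raised and 14.2% lowered). The same 6 genes, E2f1, Ccnd1, Cdk4, Cdk6, Mybl2 and Kif20a, passed in both comparisons, and Pcna was the seventh gene in Ctr cells and Tyms in αGlu cells. Both comparisons came from the same fit, and the study describes the groups of a replicate as cells of the same animal. They share no library but are not independent, and the share of all genes that passed in both was not counted. Leaving out single libraries ended the call on Pcna (S1, S7, S13 or S15, adjusted p up to 0.0927), on Tyms (S2, S4, S8, S10, S14 or S20, up to 0.0653) and on Kif20a, in Ctr cells without S5 (0.0502) and in αGlu cells without any of 8 libraries (S2, S4, S6, S8, S10, S12, S14 or S24, up to 0.0848). The median log2 fold change of the 40 genes was 0.17 in Ctr cells (0.0074 for all genes) and 0.017 in αGlu cells (0.0055 for all genes). No member passed the study's own threshold, a change of more than 2-fold at p below 0.05, in either comparison. For this threshold the study does not say whether p was adjusted, and it was taken here as unadjusted. Of all genes, 5.91% passed it in Ctr cells and 5.57% in αGlu cells.

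With both ASOs averaged, 12 of the 40 genes passed, 7 raised and 5 lowered, against 45.4% of all genes (23.4% raised and 22% lowered). The raised genes were E2f1, Top2a, Tyms, Cdk4, Ccnd1, Pcna and Ccnd2, and the lowered ones Cdk6, Plk1, Kif20a, Mybl2 and Mcm6. None of the 12 exceeded a 2-fold change. Of all genes, 5.75% changed by more than 2-fold at an unadjusted p below 0.05. The share of members that passed was below that of all genes in these 3 comparisons. However, 22 of the 40 genes had a mean below 5 CPM, and genes of like level were not compared. Markers of fibroblasts and stellate cells moved with PA at the same time: all 11 of the 11 tested (12 listed) were lowered, with a median log2 fold change of -2.49. Their summed level was 203 to 1467 CPM in BSA and 21.9 to 212 CPM in PA, Col1a1, Pdgfra and Thy1 were at 0 in 1 library each and Lum in 10. Of the macrophage markers 5 of 10 tested were lowered (median -1.54), with sums of 78.9 to 378 CPM in BSA and 80.4 to 139 CPM in PA. The 378 CPM came from library S21, and the next highest BSA library, S14, was at 175 CPM. C1qa weighed most in these sums, with a median of 80.4 CPM over all libraries, followed by Cd68 at 9.3 CPM. C1qb and C1qc had medians of 0.714 and 0.655 CPM. Among the macrophage markers listed, Cx3cr1 was at 0 in 11 libraries and Fcgr1 in 6. Lowered were also 10 of 12 acinar, 6 of 10 ductal, 5 of 8 α-, δ- and PP-cell, 3 of 11 endothelial, 1 of 10 glia and Schwann and both tested lymphocyte markers (7 listed). Of the 10 β-cell markers 3 were raised and 3 lowered. The part of these cells in the values of the 40 genes was not tested. In bulk libraries, fewer cells of a type and less RNA per cell cannot be told apart.

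**Figure D2:**
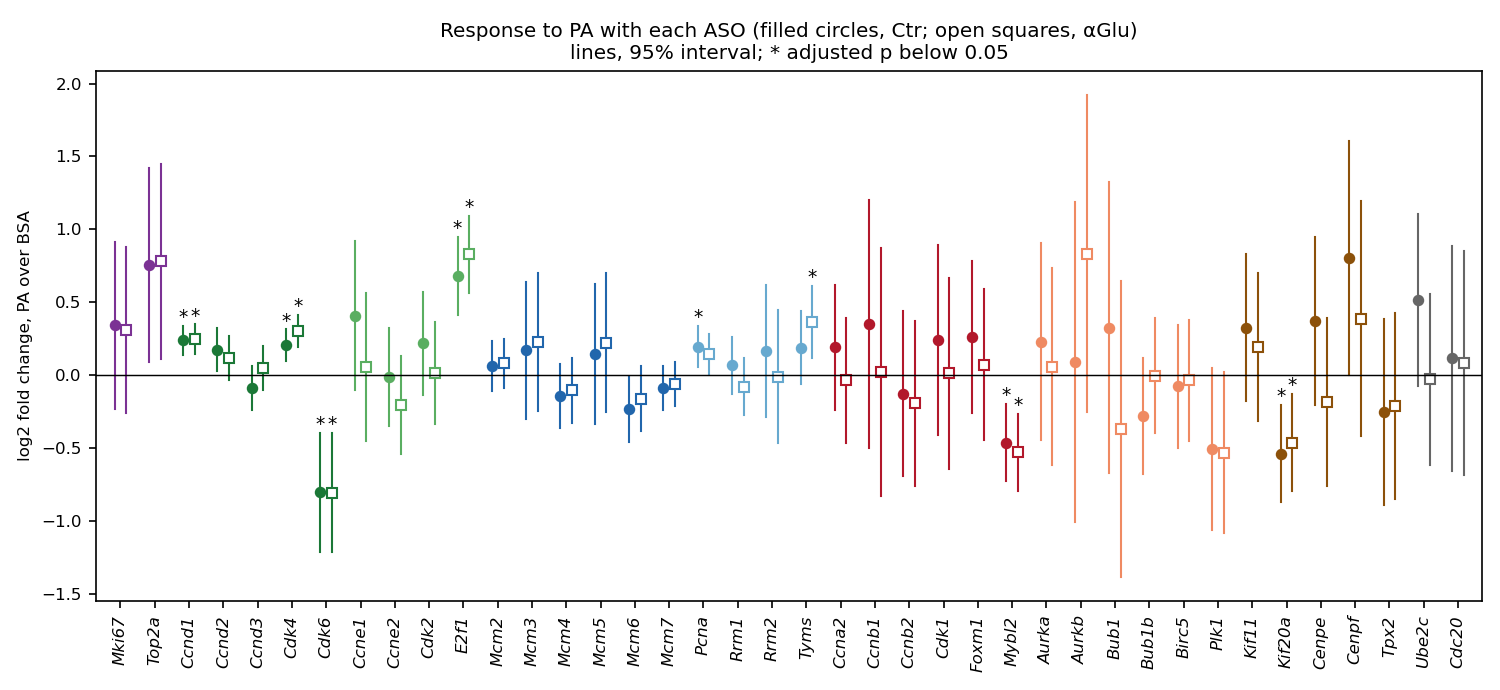
Log2 fold change of each of the 40 genes between PA and BSA, with the Ctr ASO (filled circles) and the αGlu ASO (open squares), where lines are 95% intervals and stars an adjusted p below 0.05. E2f1 (0.68 and 0.83) stands above 0 and Cdk6 (-0.80 and -0.81) below 0 with both ASOs, and intervals widen for the low mitotic genes.

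Among the regulators of G1 phase, E2f1 showed the largest rise. E2f1 (chr2:154559407-154569892 in GRCm38) encodes the transcription factor that drives entry into S phase. Its level was 5.70 to 14.4 CPM in Ctr BSA (median 10.7), 10.7 to 24.9 in Ctr PA (median 13.98), 5.12 to 13.9 in αGlu BSA (median 10.7) and 13.02 to 22.7 in αGlu PA (median 18.5). In batch 1 the BSA libraries (5.12 to 8.70 CPM) lay entirely below the PA libraries (10.7 to 15.7 CPM), and in batch 2 the ranges overlapped through 1 PA library, S23, at 14.03 CPM. The log2 fold change was 0.68 ± 0.13 (SE) in Ctr cells and 0.83 ± 0.13 in αGlu cells (adjusted p = 0.000302 and 2.98e-05). Averaged over both ASOs it was 0.75 ± 0.091, with 0.89 in batch 1 and 0.63 in batch 2 (adjusted p = 3.19e-07).

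Cyclin D1 and Cdk4, partners in one kinase complex, rose by a small amount. Ccnd1 (chr7:144929931-144939925) ran from 158 to 271 CPM over the 12 BSA libraries (median 203.5) and from 200.8 to 292 CPM over the 12 PA libraries (median 236). Within batch 1 the BSA libraries (158 to 170.0 CPM) did not reach the PA libraries (200.8 to 216 CPM), whereas the ranges overlapped in batch 2. Its log2 fold change averaged over both ASOs was 0.24 ± 0.035 (adjusted p = 4.14e-06). It came to 0.33 within batch 1 and 0.15 within batch 2. Cdk4 (chr10:127063534-127067920) ran from 84.6 to 115 CPM in BSA (median 99.5) and from 103 to 128 CPM in PA (median 118), and here the groups did not overlap within batch 2, nor, over both batches, in αGlu cells. The averaged log2 fold change of Cdk4 was 0.25 ± 0.037 (adjusted p = 6.37e-06).

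Both genes share exonic bases with a gene on the other strand, 23.4% of the exonic bases of Ccnd1 with LTO1 and 19.7% of those of Cdk4 with Tspan31. The sources do not say whether the counting used strand. LTO1 had a log2 fold change of 0.11 ± 0.053 with PA (adjusted p = 0.0916), and Tspan31 rose by 0.35 ± 0.043 (adjusted p = 4.7e-07). How far reads of Tspan31 entered the values of Cdk4 was not tested.

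Cdk6, the other kinase partner of the D cyclins, fell. Its level (chr5:3341485-3531008) was 8.29 to 23.5 CPM in Ctr BSA (median 10.01), 4.69 to 14.03 in Ctr PA (median 6.81), 7.36 to 19.5 in αGlu BSA (median 12.6) and 2.98 to 14.2 in αGlu PA (median 7.01). In batch 2 all PA libraries (2.98 to 6.44 CPM) were below all BSA libraries (7.36 to 11.4 CPM), and in batch 1 the ranges overlapped. The log2 fold change was -0.80 ± 0.20 in Ctr cells, -0.81 ± 0.20 in αGlu cells and -0.81 ± 0.14 averaged (adjusted p = 5.11e-05 for the average). The summed fibroblast and stellate markers fell in the same libraries, as given above, and their part in the fall of Cdk6 was not tested.

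Cyclin D2 rose with both ASOs averaged, by 0.15 ± 0.051 in log2 units (adjusted p = 0.024), from 482 to 918 CPM in BSA (median 697) to 654 to 1016 CPM in PA (median 743). Its PA libraries lay above the BSA libraries in batch 1 without overlap, with a difference of 0.23 there and of 0.051 in batch 2. The remaining genes of this step, Ccnd3, the E cyclins Ccne1 and Ccne2 and their kinase Cdk2, did not pass, with averaged log2 fold changes of -0.022, 0.23, -0.11 and 0.11.

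**Figure D3:**
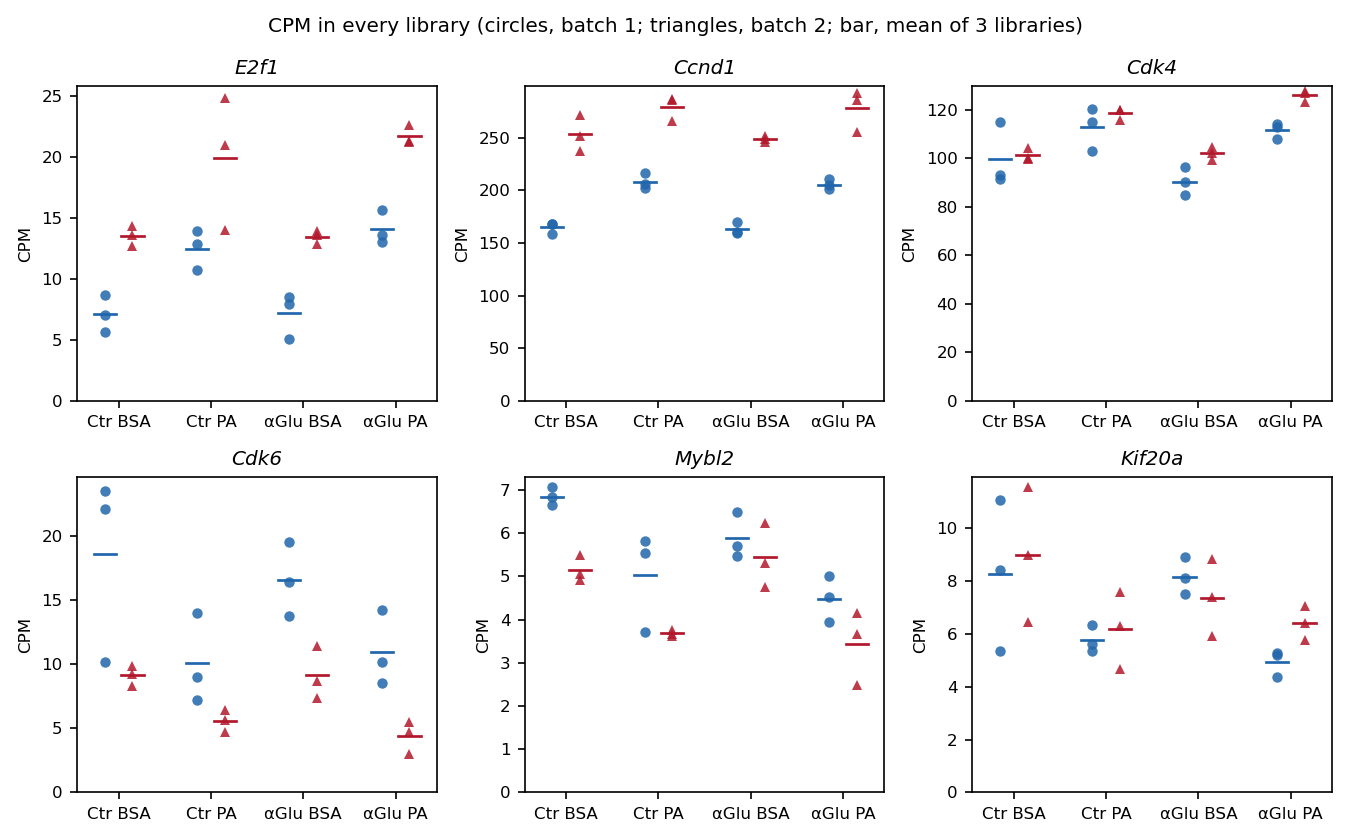
CPM of E2f1, Ccnd1, Cdk4, Cdk6, Mybl2 and Kif20a in every library of the 4 groups (axes from 0), with batch 1 as circles, batch 2 as triangles and bars at the mean of 3 libraries. With either ASO and in either batch, the mean bar of PA lies above that of BSA for the first 3 genes and below it for the last 3, while single libraries, taken over both ASOs, overlap in batch 1 for Cdk4, Cdk6 and Mybl2, in batch 2 for E2f1 and Ccnd1, and in both for Kif20a.

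Of the 10 genes of replication, 3 passed with both ASOs averaged. Pcna rose by 0.17 ± 0.048 in log2 units (adjusted p = 0.00509), from 32.6 to 44.4 CPM in BSA to 35.9 to 50.3 CPM in PA. Tyms, the thymidylate synthase that makes the T nucleotide, rose by 0.28 ± 0.085 (adjusted p = 0.0107), from 3.70 to 6.21 CPM in BSA to 3.87 to 7.97 CPM in PA. The ranges of both genes overlapped between BSA and PA in each batch. Mcm6 was lower, by 0.20 on the log2 scale (-0.20 ± 0.076, adjusted p = 0.0354), with 13.7 to 25.4 CPM in BSA and 12.1 to 22.4 CPM in PA. The call on Mcm6 was lost when any of 11 libraries was left out (S3, S4, S5, S6, S9, S10, S11, S12, S21, S23 or S24), with adjusted p up to 0.0696. The other 5 Mcm subunits of the helicase ranged from -0.12 (Mcm4) to 0.20 (Mcm3) and did not pass. Rrm1 and Rrm2, both subunits of ribonucleotide reductase, were at -0.0069 ± 0.068 and 0.076 ± 0.16.

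Among the 21 genes of late S, G2 and M phase, 1 rose and 3 fell with both ASOs averaged. The gene that rose was Top2a, with a log2 fold change of 0.77 ± 0.23 (adjusted p = 0.00827). Its level was 1.43 to 7.07 CPM in BSA and 2.55 to 11.4 CPM in PA in batch 1, and 9.13 to 18.5 CPM in BSA and 15.5 to 25.2 CPM in PA in batch 2. Ranges overlapped within each batch, whose separate log2 fold changes were 0.85 and 0.69. With 1 ASO alone Top2a did not pass (0.76 ± 0.32 in Ctr cells and 0.78 ± 0.33 in αGlu cells, adjusted p = 0.0805 and 0.0743). It did pass with each ASO in fits added after seeing the data, without S9 to S12 or with libraries blocked in assumed sets of 4. Mki67 did not pass, with 0.32 ± 0.20 and a 95% interval from -0.08 to 0.73, and Cenpf was at 0.59 ± 0.28 (adjusted p = 0.0818). With both ASOs averaged, Cenpf passed in both of the added fits and Mki67 only with the assumed sets.

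The genes that fell were Mybl2, Kif20a and Plk1. Mybl2 (chr2:163054687-163084688), which encodes the B-Myb factor of late cell-cycle transcription, was at 4.77 to 7.06 CPM in BSA (median 5.602) and 2.49 to 5.81 CPM in PA (median 3.85). In batch 2 no PA library (2.49 to 4.15 CPM) reached the BSA libraries (4.77 to 6.23 CPM). Its log2 fold change was -0.46 ± 0.13 in Ctr cells, -0.53 ± 0.13 in αGlu cells and -0.50 ± 0.091 averaged (adjusted p = 8.78e-05). Kif20a, a kinesin of the central spindle, was at 5.35 to 11.6 CPM in BSA (median 8.27) and 4.36 to 7.58 CPM in PA (median 5.70), a log2 fold change of -0.50 ± 0.12 (adjusted p = 0.000922). It shares 29.3% of its exonic bases with Cdc23 on the other strand, which was at -0.016 ± 0.035.

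Plk1, the polo-like kinase of mitotic entry, was at 1.68 to 4.402 CPM in BSA (median 2.88) and 0.753 to 3.17 CPM in PA (median 2.12). Its log2 fold change was -0.52 ± 0.19 (adjusted p = 0.0294), and the groups overlapped within each batch, with -0.85 in batch 1 and -0.21 in batch 2. Plk1 no longer passed when any of 5 libraries (S5, S6, S11, S13 or S14) was left out, with adjusted p up to 0.0645.

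The remaining genes of mitosis did not pass. The cyclins Ccna2, Ccnb1 and Ccnb2 had averaged log2 fold changes of 0.076, 0.19 and -0.16, their kinase Cdk1 0.13 and the factor Foxm1 0.17. The Aurora kinases Aurka and Aurkb were at 0.14 and 0.46, the checkpoint genes Bub1 and Bub1b at -0.021 and -0.14 and the survivin gene Birc5 at -0.058. The spindle and kinetochore genes Kif11, Cenpe and Tpx2 were at 0.26, 0.092 and -0.23, and the partners of the anaphase-promoting complex Ube2c and Cdc20 at 0.24 and 0.099. Intervals were wide for these genes. For Aurkb, with a mean of 0.873 CPM, the 95% interval ran from -0.30 to 1.23, so that changes of 2-fold were within it. The summed level of the 21 late genes was 40.5 to 149 CPM in BSA and 34.7 to 158 CPM in PA, and the groups overlapped.

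The αGlu ASO left no member past the threshold. In BSA, 0 of the 40 genes passed in αGlu against Ctr cells, as did 0% of all genes, and 0 of the 40 had an unadjusted p below 0.05 (2.90% of all genes). In PA, 0 of 40 passed at either threshold, against 0% of all genes at an adjusted p below 0.05 and 3.38% at an unadjusted one. DESeq2's Wald test also called 0 members in each of these comparisons, while over all genes it called 8 in BSA and 30 in PA. Averaged over BSA and PA, with 12 libraries per ASO, 0 of 40 passed and 0.239% of all genes did, and 0 of 40 had an unadjusted p below 0.05 (3.9% of all genes). The median log2 fold change of the members was then -0.071 (-0.0031 for all genes), and 33 of the 40 (82.5%) were on the lower side, as were 51.8% of all genes. The study describes the groups of a replicate as cells of one animal, but which libraries belong together was not given, so that the spread between preparations is part of the errors given here.

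The precision of this comparison differed between genes. For Ccnd1, with 158 to 287 CPM in Ctr and 160 to 292 CPM in αGlu cells, the averaged difference was -0.017 ± 0.035 with a 95% interval from -0.088 to 0.055 on the log2 scale, and for Cdk4 it was -0.014 ± 0.037 (-0.091 to 0.063). For E2f1 it was 0.077 ± 0.090 (-0.11 to 0.26). For Mki67 the interval ran from -0.41 to 0.40 and for Top2a from -0.62 to 0.33, so that changes within these bounds are not excluded. The smallest unadjusted p was that of Mcm3, at -0.28 ± 0.16 (adjusted p = 1). Markers of glia and Schwann cells moved with this ASO, where 7 of the 10 tested were lowered with a median of -2.60, from a summed 23.6 to 156.8 CPM in Ctr to 20.9 to 67.01 CPM in αGlu cells. Sox10 and Cdh19 were at 0 in 1 library each and Foxd3 and Gfap in 5 each, and the part of these cells in the values of the 40 genes was not tested.

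The response to PA was not shown to differ between the ASOs. By edgeR, the interaction called 0 of the 40 genes and 0% of all genes. At an unadjusted p below 0.05 it called 0 of the 40 (2.09% of all genes). DESeq2 also called 0 members and 0 of all genes. For E2f1 the difference between both responses was 0.15 ± 0.18 (95% interval -0.22 to 0.52), and for Cdk6 it was -0.0035 ± 0.28 (-0.57 to 0.56).

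Most genes of division differed between the batches. Between batch 2 and batch 1, 31 of the 40 genes passed, 26 higher and 5 lower in batch 2, against 51.5% of all genes (26.1% higher and 25.4% lower). This test counted every library as independent, although the study describes the groups of a replicate as cells of the same animal. Each batch therefore held fewer animals than libraries, and which libraries share an animal was not given. Errors and p-values between the batches, here and below, can thus be too small and counts of genes too large. The median log2 fold change of the 40 was 0.43, and that of all genes was 0.0039. By the study's own threshold 11 of 40 passed, 10 of them higher, against 6.38% of all genes (1.06% higher and 5.32% lower). The 21 late genes had a median of 0.95, with 16 higher and 1 lower.

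Top2a differed most. Its level was 1.43 to 11.4 CPM in the 12 libraries of batch 1 (median 4.82) and 9.13 to 25.2 CPM in batch 2 (median 18.2), a log2 fold change of 1.61 ± 0.23 (adjusted p = 2.69e-06). The highest libraries of batch 1 reached the lowest of batch 2. Mki67 was at 4.66 to 18.8 CPM in batch 1 (median 11.2) and 18.02 to 38.9 CPM in batch 2 (median 28.9), again with a small overlap, and a difference of 1.39 ± 0.20 (adjusted p = 2.32e-06). Cdk1, the kinase of mitotic entry, was at 0.58 to 2.75 CPM in batch 1 (median 1.24) and 1.75 to 5.15 CPM in batch 2 (median 3.70), a difference of 1.37 ± 0.23 (adjusted p = 1.61e-05).

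Further genes more than 2-fold higher in batch 2 were Cenpf (1.46), Aurkb (1.44), Bub1 (1.42), Cdc20 (1.10), Ube2c (1.09), Cenpe (1.04) and Ccnb1 (1.04). The summed level of the 21 late genes was 34.7 to 88.8 CPM in batch 1 and 82.7 to 158 CPM in batch 2. In batch 1, S5 (88.8 CPM) and S7 (83.8 CPM) were above the lowest library of batch 2. The late sum was lowest in S12, S10 and S11 (34.7, 40.5 and 42.6 CPM). Without S9 to S12, a choice made after seeing these values, 27 of the 40 genes passed between the batches, against 48.4% of all genes in that fit, and Top2a and Mki67 were at 1.24 and 1.10.

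**Figure D4:**
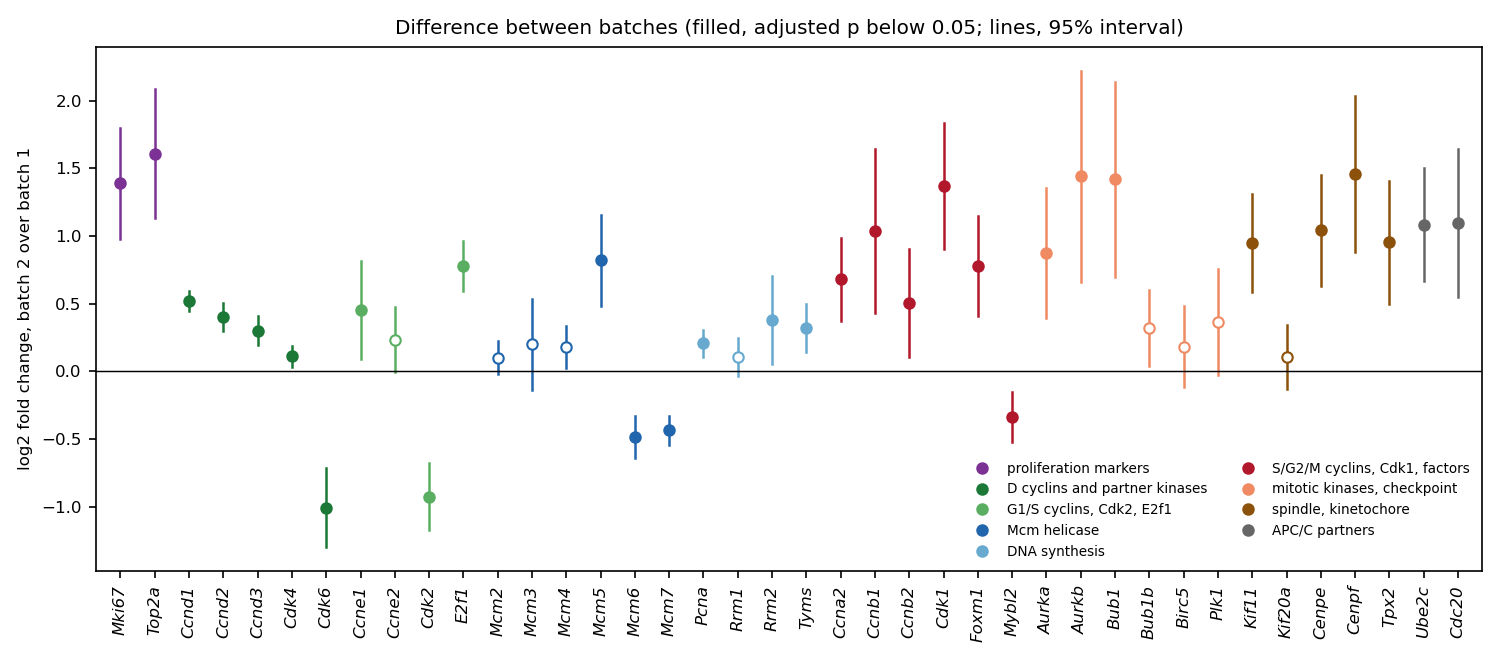
Log2 fold change of each of the 40 genes between batch 2 and batch 1 from the same fit, with 95% intervals and filled circles at an adjusted p below 0.05. Libraries of the same animal counted as independent, so that the intervals can be too narrow. Genes of late S, G2 and M phase lie between 0.11 (Kif20a) and 1.61 (Top2a), except Mybl2 at -0.34, while Cdk6 (-1.01) and Cdk2 (-0.93) are the lowest.

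Lower in batch 2 were Cdk6, Cdk2, Mcm6, Mcm7 and Mybl2. Cdk2 was at 4.73 to 8.77 CPM in batch 1 and 2.62 to 4.34 CPM in batch 2, without overlap, a log2 fold change of -0.93 ± 0.12 (adjusted p = 6.39e-07). Mcm7 was at 19.04 to 25.6 CPM in batch 1 and 14.1 to 17.9 CPM in batch 2, also without overlap, with -0.44 ± 0.053 (adjusted p = 1.94e-07). Ccnd1 was the gene without overlap in the other direction, with 158 to 216 CPM in batch 1 and 237 to 292 CPM in batch 2, a difference of 0.52 ± 0.035 (adjusted p = 1.24e-11). E2f1 and Ccnd2 were also higher in batch 2, by 0.78 and 0.40 on the log2 scale (adjusted p = 1.43e-15 and 1.7e-13 by DESeq2's Wald test). Mcm5 was higher in batch 2 by 0.82 ± 0.16, so that subunits of one helicase differed in opposite directions.

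Markers of other cells differed between the batches as well. All 12 acinar markers were lower in batch 2 (median log2 fold change -4.403), with a summed 3688 to 25360 CPM in batch 1 and 261 to 687 CPM in batch 2. All 10 β-cell markers were higher (median 0.54), with sums of 84080 to 134000 CPM and 110400 to 152100 CPM. None of the 11 tested fibroblast and stellate markers differed at an adjusted p below 0.05 (smallest adjusted p = 0.113). Of the ductal markers 7 of 10 tested were lower and 1 was higher, with sums of 1048 to 1698 CPM in batch 1 and 488 to 908 CPM in batch 2, which did not overlap. Lower were also 6 of 8 α-, δ- and PP-cell markers (1 higher), 5 of 11 endothelial and both tested lymphocyte markers. Of the macrophage markers 2 of 10 were higher (median 0.998), with sums of 78.9 to 139.8 CPM in batch 1 and 92.1 to 378 CPM in batch 2. Here too the 378 CPM was S21, with S14 next at 175 CPM. Of the glia and Schwann markers 2 of 10 were higher and 1 was lower. The part of any of these cells in the batch difference of the 40 genes was not tested.

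**Figure D5:**
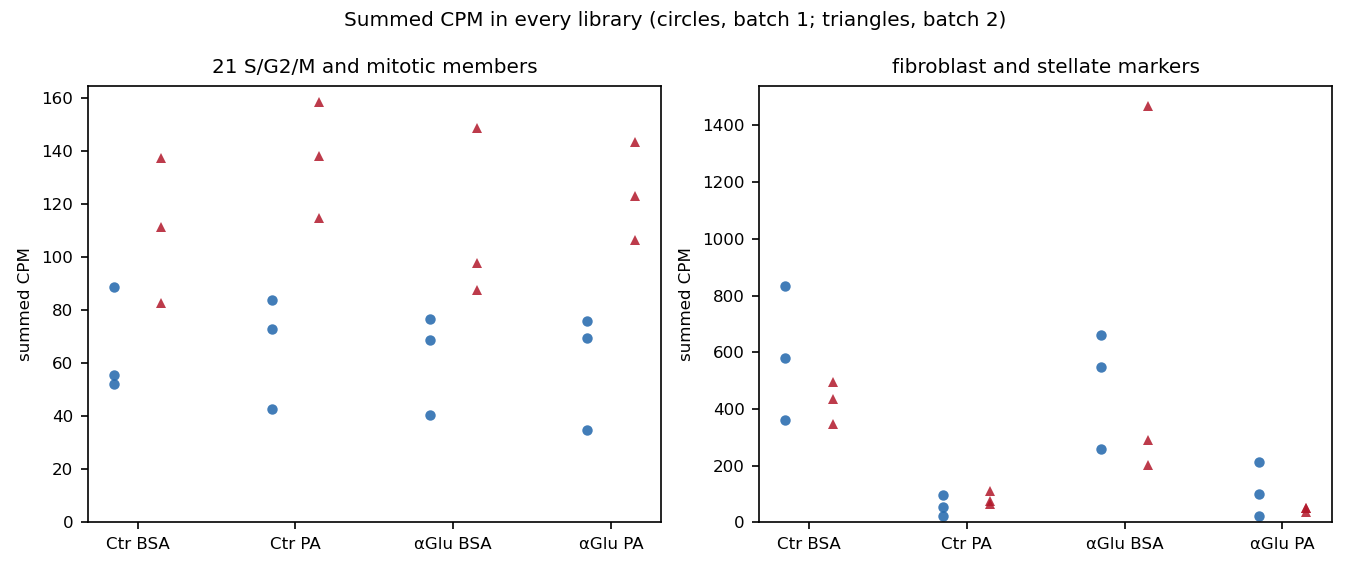
Summed CPM of the 21 genes of late S, G2 and M phase (left) and of the fibroblast and stellate markers (right) in each library by group, with batch 1 as circles and batch 2 as triangles (axes from 0). The late sum is 34.7 to 88.8 CPM in batch 1 and 82.7 to 158 CPM in batch 2, where S5 and S7 of batch 1 lie above S17 of batch 2. The marker sum is 203 to 1467 CPM in BSA and 21.9 to 212 CPM in PA, where S8 of PA lies above S22 of BSA.

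Because both batches held 3 libraries of every group, the response to PA could be compared between them. No member passed (0 of 40, with 0.0565% of all genes), and 2 of the 40 had an unadjusted p below 0.05 (6.18% of all genes), Ccnd1 (-0.18 ± 0.063, adjusted p = 0.573) and Rrm2 (0.75 ± 0.29, adjusted p = 0.66). DESeq2 called 0 members and 42 of all genes. In batch 2 the late sum was 82.7 to 149 CPM in BSA and 106 to 158 CPM in PA, and in batch 1 it was 40.5 to 88.8 and 34.7 to 83.8 CPM, so that the groups overlapped in both.

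Other genes of the cycle showed a like mixture with PA. Of 118 tested, 19 rose and 16 fell with both ASOs averaged, a share of calls again below that of all genes (45.4%), with a median of 0.065. Here too, genes of like level were not compared. Of 46 further genes of mitosis, 5 rose and 3 fell, and among them the kinetochore gene Spc25 rose by 0.42 ± 0.058 in log2 units (adjusted p = 2.41e-06), as did the spindle gene Dlgap5 by 0.47 ± 0.11 (adjusted p = 0.000983). Of 32 genes of replication, 6 rose and 4 fell, and Orc6, a subunit of the origin recognition complex, fell by 0.55 (-0.55 ± 0.053, adjusted p = 1.11e-08), as did the maintenance methyltransferase Dnmt1 (-0.28 ± 0.039, adjusted p = 2.5e-06). Among 26 genes that control E2F and the kinases, 6 rose and 6 fell. The checkpoint kinase Chek1 was at 11.1 to 17.5 CPM in BSA and 6.82 to 11.3 CPM in PA (-0.80 ± 0.080, adjusted p = 1.87e-08), Cks1b, a small partner of the cyclin-dependent kinases, was at 0.39 ± 0.067 and the E2F partner Tfdp1 at 0.14 ± 0.028.

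Calls went both ways among the inhibitors of the kinases and the retinoblastoma family, where 2 of 14 tested genes rose and 3 fell. Cdkn1a, which encodes p21, fell from 191.8 to 369 CPM in BSA (median 268) to 153 to 320.2 CPM in PA (median 215), with -0.33 ± 0.050 (adjusted p = 9.45e-06). Cdkn1c, which encodes p57, was low and fell (-0.83 ± 0.20, adjusted p = 0.00149), and Cdkn1b, which encodes p27, was at -0.031 ± 0.042. Cdkn2a had too few counts to be tested, with at most 0.567 CPM. Of 20 genes linked to β-cell growth, 3 rose and 9 fell, among them Akt2 (0.26 ± 0.032), the factor Nfatc2 (-0.53 ± 0.059) and the histone demethylase Kdm5b (-0.33 ± 0.038). Over all genes tested, 23.4% rose and 22% fell, so that the share that fell was higher in the growth list. For neither list were genes of like level compared.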

How the data were processed

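The authors sequenced stranded mRNA libraries and processed them in the QIAGEN RNA-seq Analysis Portal (version 5.1), and the submitters' processing notes name GRCm38. For the aligner, its filters and the strand setting of the counting, the sources give nothing. Each gene's exon read count and TPM per library were used as deposited by the authors, and their RPKM and CPM columns were not used. Empty cells were read as a count of 0. The 1 row without a gene (0 counts) was left out. Analysis of the counts used edgeR 4.0.16 under R 4.3.3, with TMM scaling, filterByExpr with a minimum count of 10, and a quasi-likelihood F-test with group and batch over all 24 libraries. SE were derived from the F statistic and intervals are at 95%. Genes passed at a Benjamini-Hochberg adjusted p below 0.05 over all genes tested, and adjusted p-values are from edgeR unless DESeq2 (1.42.0) is named. CPM used TMM-scaled library sizes. The code was tested on simulated data. The 40 genes, the other gene lists and the alternatives were chosen with earlier results of these data known. Genes were named by role, and for several genes of small p the levels were given as well. For the other lists, up to 5 genes in each direction and the CDK inhibitors were named. Gene positions and exon overlaps came from a GRCm38 annotation, and promoters from RefSeq. Counts without molecular identifiers carry more than counting error, which the spread between libraries reflects.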

Additional observations from a re-analysis of the deposited data

Results flagged for a closer look

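In 3 of 160 sets of 6 libraries (40 genes in 4 groups), 1 library stood apart from the other 5 by Dixon's ratio of its gap to the range, past the 95% critical value. Chance gives about 1 in 20 such sets only where the 6 values come from a single normal population. Each set mixed both batches, so the count is not compared with that rate. For Cdk4 in Ctr PA, library S11 was at 103 CPM and the nearest library at 115 CPM (ratio 0.693). For Ccne1 in αGlu BSA, S10 was at 0.697 CPM and the nearest at 1.84 CPM (0.687). For Ccne2 in Ctr PA, S23 was at 10.1 CPM and the nearest at 5.82 CPM (0.647). The rise of Cdk4 with PA passed the threshold without any single library.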

How the results depend on the processing

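With DESeq2, upper-quartile scaling or either other filter on low counts, every count of members called stayed within 1.5 times its value here. Upper-quartile scaling and DESeq2's size factors moved the median of all genes by less than 0.1 on the log2 scale. By the study's own threshold (more than 2-fold at p below 0.05, taken as unadjusted), 0 members passed in each PA comparison and 11 between the batches. It also called 0 of the other cell-cycle genes, where 47 of 138 with the growth genes included passed at an adjusted p below 0.05. Without the batch term 2 members passed with PA in Ctr cells, 3 in αGlu cells and 7 averaged, and 26 of the other genes. In batch 1 alone the counts were 2, 2, 7 and 22, with fewer libraries, and in batch 2 alone 2 and 4 members with each ASO, 9 averaged, and 29 other genes. Without each library in turn, 6 to 9 members passed with PA in Ctr cells, 5 to 7 in αGlu cells, 10 to 12 averaged and 28 to 34 between the batches, 41 to 48 of the other genes did, and 0 in every other comparison. For the fits without the batch term, with a single batch or without a library, the share of all genes that passed was not counted. Their counts are therefore not read as changes particular to the members. Without S9 to S12, which was chosen after seeing the data, PA in Ctr cells raised 8 and lowered 2 members (25.5% of all genes passed), and 10 passed averaged (40.7% of all genes). In Ctr cells Top2a, Cenpf, Ccna2 and Ube2c were new and Kif20a was lost. In αGlu cells Top2a was new and Kif20a was lost. Averaged, Cenpf was new and Ccnd2, Mcm6 and Plk1 were lost. Of 1828 values of called members under the alternatives, 1666 still passed, 162 no longer did and 0 changed direction. No label or source used here says which libraries share a preparation, so no pairing entered the results. Sets of 4 consecutive library numbers each hold every group once, and as an assumption added after seeing the data they were fitted as a replicate block in place of the batch. With that block 11 members passed with PA in Ctr cells (35.3% of all genes), 9 in αGlu cells (34.1%) and 14 averaged (49.8%). The block called 0 members in the ASO comparisons and the interaction. Of all genes it called 0.0565% for the ASO in BSA, 0% in PA, 0.408% averaged and 0% in the interaction. New against the main fit were Cenpf, Ccnd2, Mcm6 and Top2a in Ctr cells, and Pcna and Top2a in αGlu cells. Averaged, Cenpf and Mki67 were new. As a hint from the data and not from the design, all 24 libraries correlated best with their own set in their deviations from the mean of group and batch, while 25 of 36 pairs within a set had a correlation over 0.1. Low counts of the mitotic genes limit their precision.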
